A study of Mus musculus with 6 samples.

Results

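The 10 genes described here are core genes of the circadian clock or direct outputs of it: Arntl (which encodes BMAL1), Clock, Per1, Per2, Per3, Cry1, Nr1d1, Nr1d2, Dbp and Tef. They were chosen by symbol, with earlier results of these data known, and all 10 were found among the 23282 rows of the deposited tables. RNA was measured in kidney of 3 BALB/c mice (labelled BALBc) and 3 C57BL/6 mice (labelled B6), both inbred laboratory strains, with 1 library per mouse and no treatment, transgene or deletion named. The series concerns strain differences of kidney innate lymphoid cells, and these libraries profile the kidney as a tissue. Libraries came from a kit that reads the 3′ ends of polyadenylated transcripts. The labels give no age, no sex and no hour of day at which kidneys were taken, so hour of day and strain cannot be told apart here.

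The mammalian clock is a loop of transcription that takes about a day. BMAL1 and CLOCK form a dimer that binds E-boxes and activates the Per and Cry genes, whose proteins then inhibit that dimer. The same dimer activates Nr1d1 and Nr1d2, which encode the nuclear receptors REV-ERB alpha and REV-ERB beta, and these repress Arntl and other genes through ROR response elements. DBP and TEF are PAR bZIP transcription factors that bind D-boxes and carry the rhythm to output genes. Nearly every kidney cell type runs this clock, and in kidney it is known for daily rhythms of filtration, sodium handling and drug transport. Transcripts of the activators and of their targets peak at different hours, so their levels in a single sample depend on when it was taken.

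The elements named above can be seen in the promoters of several of these genes. RefSeq promoter sequences (GRCm38.p6, 250 bases before to 50 after a start site) were found for 9 of the 10 genes, with 14 start sites in all. Both strands were searched for the E-box CACGTG, its variant CACGTT, the D-box TTATGTAA or TTACGTAA, the cAMP element TGACGTCA and the ROR response element. The pair shown first holds the 250 bases before the start of Nr1d1 (chr11:98775378-98775627, minus strand), which was higher in BALB/c, and of Cry1 (chr10:85185055-85185304, minus strand), which was lower. Capitals mark the matches, written 5′ to 3′ on the gene's strand, so that AACGTG is the variant E-box on the other strand.
Nr1d1: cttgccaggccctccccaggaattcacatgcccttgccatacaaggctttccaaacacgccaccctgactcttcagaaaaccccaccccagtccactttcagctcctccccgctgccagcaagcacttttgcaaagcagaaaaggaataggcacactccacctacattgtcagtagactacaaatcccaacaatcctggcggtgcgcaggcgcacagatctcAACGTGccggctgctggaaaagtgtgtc
Cry1: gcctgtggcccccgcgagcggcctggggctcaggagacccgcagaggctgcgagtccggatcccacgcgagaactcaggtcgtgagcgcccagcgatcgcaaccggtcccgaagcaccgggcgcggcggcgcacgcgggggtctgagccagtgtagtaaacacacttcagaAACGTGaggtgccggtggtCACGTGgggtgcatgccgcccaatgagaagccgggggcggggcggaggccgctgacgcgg
Cry1 held an E-box 60 bases before its start and the variant 79 bases before it, and Nr1d1 held the variant 28 bases before its start. The shorter stretches below show the matches in Per1 (chr11:69098769-69098808, plus strand), Tef (chr15:81802529-81802568, plus strand), Per3 (chr4:151044811-151044875, minus strand) and, after the start site, Arntl (chr7:113207527-113207556, plus strand).
Per1: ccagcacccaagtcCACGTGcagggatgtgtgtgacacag
Tef: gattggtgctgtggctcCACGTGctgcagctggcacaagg
Per3: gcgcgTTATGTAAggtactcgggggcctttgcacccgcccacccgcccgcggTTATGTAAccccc
Arntl: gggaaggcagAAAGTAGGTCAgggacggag
Per1 and Tef held an E-box, Per3 held a pair of D-boxes, and Arntl held a ROR response element 27 bases after its second listed start. The E-box was found in 3 of the 9 genes (4 of 14 starts) and in 7.15% of 32851 promoters of the same length. The D-box was found in 1 of the 14 starts and in 1.06% of promoters, and the ROR response element in 1 of the 14 starts and in 0.384% of promoters. The variant E-box was found in 2 of the 14 starts and in 4.68% of promoters, and the cAMP element in 0 of the 14 starts and in 1.79% of promoters. A match is a description of these letters and not a measure of binding.

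Levels are given as CPM, the reads of a gene scaled to a common library total. Folds compare BALB/c with B6 as a difference of log2(CPM + 1), so those of genes at low levels are understated. The test was limma, adjusted by Benjamini-Hochberg over 13317 genes, with 0.05 as the limit of the adjusted p for a call. Libraries held between 8310798 and 10416332 reads. Both strains were aligned to mm10, a B6 genome, and loss of BALB/c reads against it was not tested. All 10 clock genes passed the filter on low values. Of them 2 were called higher in BALB/c (Nr1d1 and Nr1d2) and 3 were called lower (Clock, Per2 and Cry1). Among all genes tested 9.09% were called, 4.17% higher and 4.93% lower. The libraries of the strains did not overlap in 7 of the 10 genes, against 25.4% of all genes tested. The median size of the log2 fold, regardless of sign, was 0.64 over the 10 genes and 0.22 over all genes tested. Since the 10 genes were chosen with earlier results of these data known, these contrasts are descriptions and were not tested. The 5 called genes were not equally firm: under leaving out each library in turn, Nr1d1, Nr1d2 and Clock kept their calls, while Per2 and Cry1 each lost theirs in 5 of 6 cases. Without a trend of the variance prior with expression level, 1 of the 10 genes was called (Nr1d1).

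**Figure D1:**
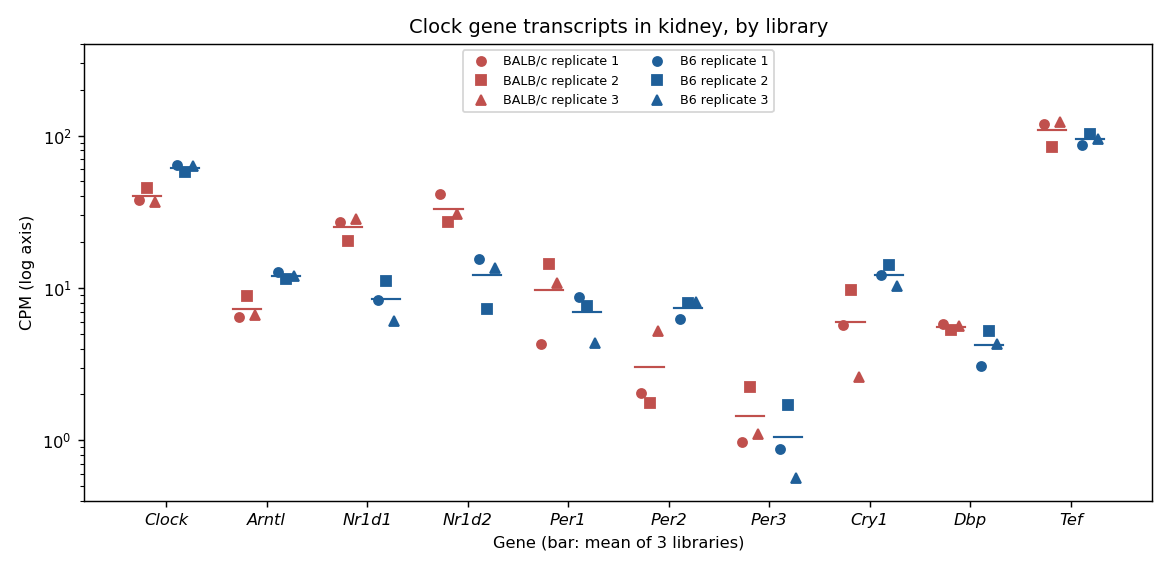
CPM of the 10 clock genes in each kidney library (log axis), BALB/c on the left of each pair and B6 on the right, with a bar at the mean of 3 libraries. All BALB/c libraries lie above all B6 libraries for Nr1d1, Nr1d2 and, by a narrow margin, Dbp, and below them for Clock, Arntl, Per2 and Cry1.

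The REV-ERB genes had the highest folds of the 10. Nr1d1 (chr11:98767932-98775333, minus strand) had 26.9, 20.3 and 28.2 CPM in BALB/c replicates 1 to 3, against 8.36, 11.1 and 6.05 CPM in B6 replicates 1 to 3. The lowest BALB/c library was therefore above the highest B6 library. Its log2 fold was 1.48 ± 0.24 (SE, limma adjusted p = 0.000152), a 2.79-fold difference, and it kept its call under all 17 alternatives. Nr1d1 is convergent with Thra, the thyroid hormone receptor alpha gene, and their exons overlap. Of 51 words of 50 bases from the 3′ end of Nr1d1, 11.8% occur in Thra on the other strand, and whether counting used strand is not given in the sources used here. Thra itself had 34.6, 22.2 and 38.5 CPM in BALB/c, against 27.2, 44.2 and 38.1 CPM in B6, with a log2 fold of -0.20 (limma adjusted p = 0.62).

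Nr1d2 (chr14:18204054-18239127, minus strand) shares no exon with another gene. It had 41.2, 27.1 and 30.7 CPM in the 3 BALB/c libraries, against 15.4, 7.26 and 13.6 CPM in the 3 B6 libraries. The strains again did not overlap, and the fold in log2, 1.42 ± 0.24 (SE, limma adjusted p = 0.000256), was close to that of Nr1d1, a 2.67-fold difference. Within a strain the pair did not keep the same order: B6 replicate 2 had the highest Nr1d1 and the lowest Nr1d2 of the B6 libraries. The fold of Nr1d1 was larger in size than that of 98.5% of all genes tested and that of Nr1d2 larger than that of 98.4%.

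The genes of the activating dimer were both lower in BALB/c, and 1 of the 2 passed the test. Clock (chr5:76209868-76304792, minus strand) had 37.7, 45.5 and 36.8 CPM in BALB/c, against 64.3, 57.4 and 62.9 CPM in B6. The gap between the strains was wider than the range within either. Its log2 fold was -0.61 ± 0.14 (SE, limma adjusted p = 0.00443), and B6 was 1.53-fold higher. Arntl (chr7:113207465-113314126, plus strand) had 6.48, 8.84 and 6.62 CPM in BALB/c, against 12.7, 11.5 and 11.9 CPM in B6. These libraries did not overlap either, but its fold of -0.66 ± 0.25 in log2 (SE) did not pass the test (limma adjusted p = 0.115), and Arntl was called under none of the 17 alternatives (limma adjusted p between 0.0696 and 0.262). Exons of Arntl, like those of Tef, overlap those of an antisense gene. Arntl rested on 66 to 75 reads in a BALB/c library and 106 to 115 reads in a B6 library. Arntl and Clock had the same order of libraries within B6, with replicate 1 highest, and both were highest in replicate 2 within BALB/c.

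The 3 Per genes did not move alike. Per2 (chr1:91415982-91459324, minus strand), which encodes a repressor of the dimer, had 2.03, 1.77 and 5.21 CPM in BALB/c, against 6.28, 7.96 and 8.07 CPM in B6. BALB/c replicate 3 stood closer to B6 than the other two, yet below every B6 library. The log2 fold was -1.17 ± 0.34 (SE, limma adjusted p = 0.0334), and leaving out any library but BALB/c replicate 3 ended the call (limma adjusted p up to 0.14). Per1 (chr11:69095217-69109960, plus strand), which encodes a related repressor and also responds directly to glucocorticoids, had 4.26, 14.3 and 10.7 CPM in BALB/c, against 8.69, 7.66 and 4.37 CPM in B6. Here the strains overlapped, with BALB/c replicate 1 lowest and BALB/c replicate 2 highest of all 6 libraries, and the log2 fold was 0.35 ± 0.35 (SE, 95% interval -0.36 to 1.07, limma adjusted p = 0.624). That fold ranged from 0.03 to 0.80 when 1 library was left out, the highest without BALB/c replicate 1. Per3 (chr4:151003652-151044665, minus strand), the least required of the Per genes for rhythm in mice, was near the detection limit with 10, 19 and 11 reads in BALB/c, against 8, 17 and 5 reads in B6. Its log2 fold of 0.25 had a 95% interval from -0.60 to 1.10 (limma adjusted p = 0.795), so differences within that interval remain possible at this depth.

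Cry1 (chr10:85131700-85185064, minus strand), the cryptochrome that acts late in the cycle as a strong repressor of the dimer, had 5.71, 9.67 and 2.605 CPM in BALB/c, against 12.2, 14.2 and 10.3 CPM in B6. The strains did not overlap, though BALB/c replicate 2 came near the lowest B6 library. The log2 fold was -1.05 ± 0.33 (SE, limma adjusted p = 0.0452). Leaving out any library but BALB/c replicate 2 ended the call, and without BALB/c replicate 3 the log2 fold was -0.64 (limma adjusted p = 0.227). Scaling by total reads or by the upper quartile also ended it (limma adjusted p = 0.0587 and 0.0515).

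**Figure D2:**
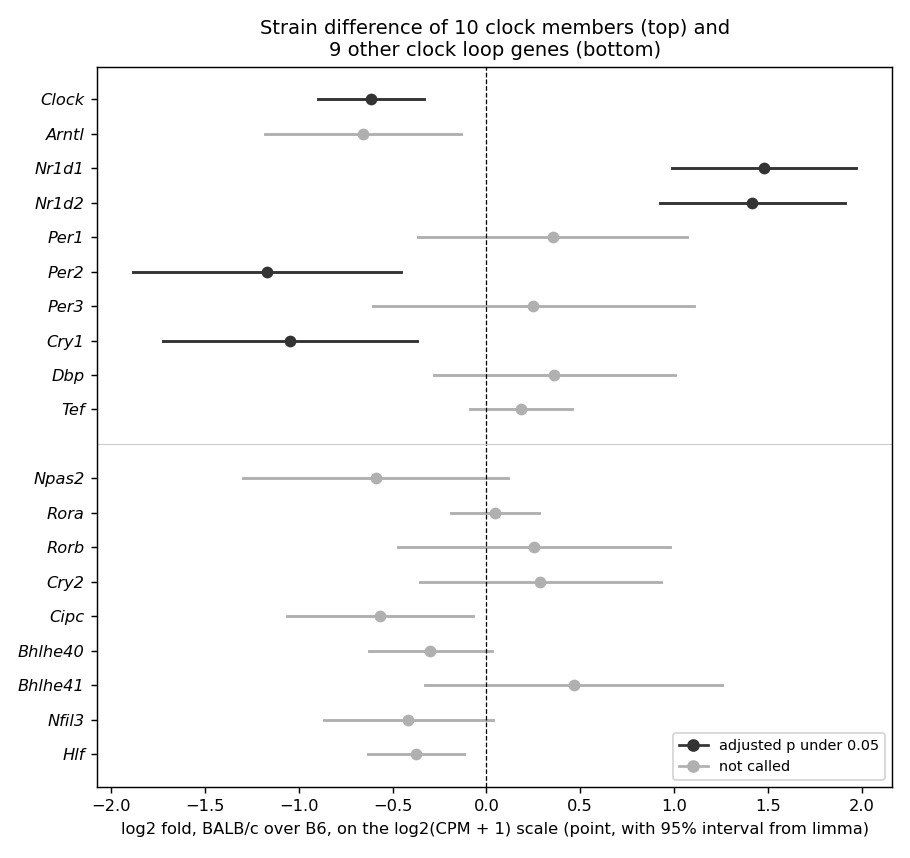
Log2 fold of BALB/c over B6 with its 95% interval from limma, for the 10 clock genes (top) and 9 other genes of the clock loop (bottom), dark where the adjusted p was under 0.05. Nr1d1 and Nr1d2 stand to the right at 1.48 and 1.42, Clock, Per2 and Cry1 to the left at -0.61, -1.17 and -1.05, and none of the lower 9 was called.

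The PAR bZIP output genes did not pass the test. Dbp (chr7:45705088-45710203, plus strand) had 5.81, 5.31 and 5.61 CPM in BALB/c, against 3.08, 5.24 and 4.26 CPM in B6. BALB/c libraries lay close together and just above the highest B6 library, and the log2 fold was 0.36 ± 0.31 (SE, 95% interval -0.281 to 1.003, limma adjusted p = 0.563). The 3′ end of Dbp lies within exons of Sphk2, a sphingosine kinase gene on the other strand, and 100% of its words occur there, so without knowledge of strand its reads cannot be assigned to Dbp with certainty. Sphk2 had 39.3, 37.2 and 39.2 CPM in BALB/c, against 29.3, 32.6 and 24.3 CPM in B6 (log2 fold 0.42, limma adjusted p = 0.105). Tef (chr15:81802421-81826863, plus strand) had 118.8, 84.3 and 123.8 CPM in BALB/c, against 86.3, 101.9 and 95.6 CPM in B6. BALB/c held both the highest and the lowest Tef library, and the log2 fold was 0.19 ± 0.13 (SE, 95% interval -0.09 to 0.46, limma adjusted p = 0.461).

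**Figure D3:**
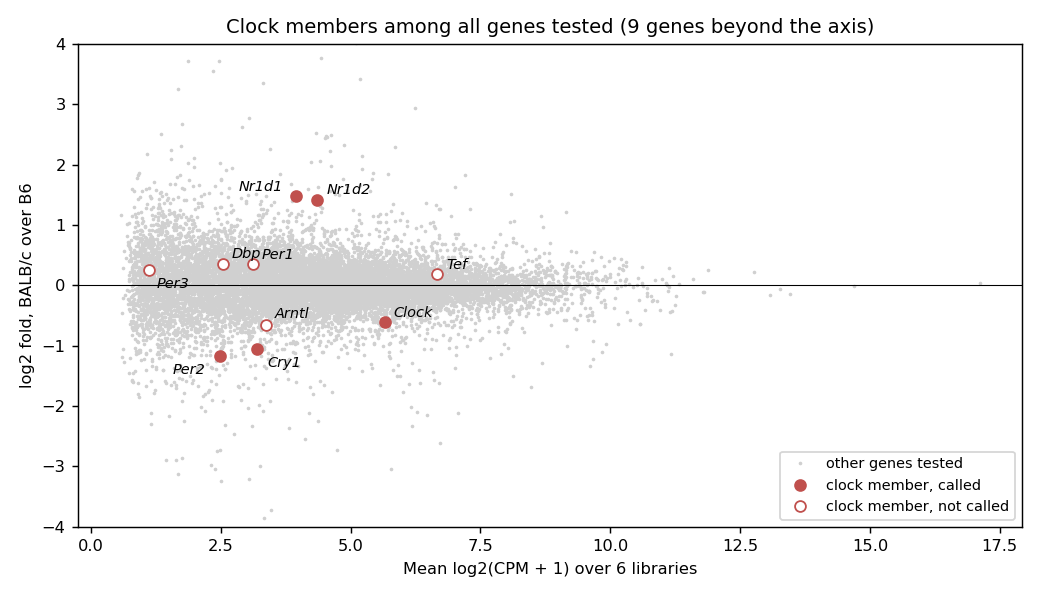
Log2 fold of BALB/c over B6 against mean log2(CPM + 1) over 6 libraries for all 13317 genes tested (grey; 9 genes lie beyond the axis limit of 4 in either direction), with the 10 clock genes marked. Nr1d1 and Nr1d2 lie at the upper edge of the cloud at their level, Per2 and Cry1 near its lower edge, and Per1, Per3, Dbp and Tef within it.

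Differences between 2 genes within 1 library depend little on how that library was scaled. Arntl minus Nr1d1 on the log2(CPM + 1) scale was -1.90, -1.11 and -1.94 in BALB/c libraries and 0.55, 0.05 and 0.87 in B6 libraries. In every BALB/c library the Arntl value was thus below the Nr1d1 value, and in every B6 library it was above. The mean of this difference was -1.65 ± 0.46 in BALB/c and 0.49 ± 0.41 in B6 (SD, n = 3 each). Arntl minus Dbp was 0.14, 0.64 and 0.20 in BALB/c and 1.74, 1.001 and 1.29 in B6, again without overlap. Arntl was lower in every BALB/c library, and Nr1d1 and Dbp were each higher. The lack of overlap in both differences thus follows from the single genes and adds no separate result. Clock minus Per3 was 4.10 ± 0.23 in BALB/c and 4.97 ± 0.48 in B6 (SD, n = 3 each). Cry1 minus Per1 spread more, at 0.35, -0.52 and -1.70 in BALB/c and 0.45, 0.81 and 1.07 in B6. The pairs were chosen with earlier results of these data known, so their differences are described without a test.

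**Figure D4:**
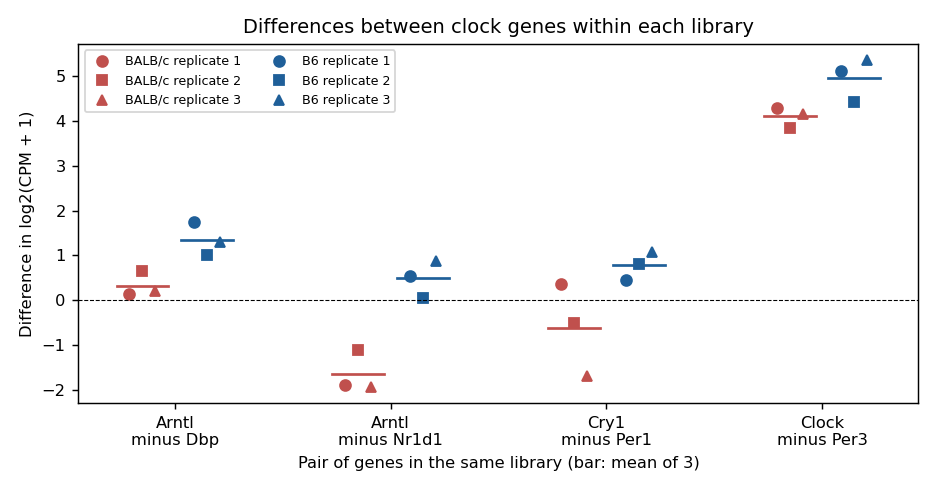
Difference between 2 clock genes in log2(CPM + 1) within each library, BALB/c on the left of each pair of groups and B6 on the right, with a bar at the mean of 3 libraries. For Arntl minus Nr1d1 the 3 BALB/c libraries lie between -1.94 and -1.11 and the 3 B6 libraries between 0.05 and 0.87.

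Mice of the same strain differed most in Per1 and Cry1. The SD within strains on the log2(CPM + 1) scale was 0.65 for Per1 and 0.58 for Cry1, larger than in 98.4% and 94.6% of the 500 tested genes nearest in level. That of Nr1d2 was 0.43, larger than in 95.6% of such genes, and that of Tef was 0.23, larger than in 91.8%. Clock and Arntl were among the steadier genes, with SDs of 0.13 and 0.16, larger than in 29.0% and 9.2% of the 500 nearest genes. For Per2 and Cry1 most of the spread lay in BALB/c, with SDs of 0.64 and 0.79 there and 0.18 and 0.21 in B6. For Dbp it lay in B6, with an SD of 0.06 in BALB/c and 0.31 in B6. With 3 libraries per strain these SDs are themselves imprecise, and the difference in spread was not tested.

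Genes outside the 10 with the most similar profile were sought among the 8711 tested genes that averaged 10 CPM or more, by the mean absolute difference of centred log2 values over the 6 libraries. Nearest to Arntl were Ldlrad3, Tmem35 and Mcfd2, with mean differences of 0.049, 0.051 and 0.055. Mcfd2 had 53.7, 62.3 and 53.5 CPM in BALB/c, against 97.2, 92.6 and 96.6 CPM in B6. Nearest to Dbp were Tex9, C2cd2 and Pros1, with mean differences of 0.046, 0.061 and 0.061. With 6 libraries and that many candidates, some close profiles are found for any gene.

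Of 12 other genes of the clock loop, 10 were tested and 0 were called by limma, also 0 by limma-voom, while 3 had an unadjusted p under 0.05 (21.3% of all genes tested did). Their median log2 fold was -0.34. The libraries of the strains did not overlap in 5 of the 10, all lower in BALB/c, against 25.4% of all genes tested in either direction. Hlf, the third PAR bZIP gene, had 82.6, 68.5 and 94.3 CPM in BALB/c, against 113.4, 103.3 and 100.2 CPM in B6. Its fold was -0.38 ± 0.12 in log2 (SE, limma adjusted p = 0.0587), and it was called without BALB/c replicate 3 (limma adjusted p = 0.0226). Nfil3, a repressor at D-boxes, stood at -0.42 in log2 (limma adjusted p = 0.281), Cipc, an inhibitor of CLOCK, -0.57 (0.161), Bhlhe40, a repressor at E-boxes, -0.30 (0.285) and Npas2, a stand-in for CLOCK, -0.59 (0.34). Rora, Rorb, Cry2 and Bhlhe41 had log2 folds of 0.05, 0.25, 0.29 and 0.46 (limma adjusted p = 0.874, 0.75, 0.668 and 0.543), and Rora turned to -0.07 without B6 replicate 2. Exons of Rora, Cry2, Bhlhe40 and Bhlhe41 each overlap those of 1 other gene. Arntl2, a paralog of Arntl, lay below the filter with 10, 26 and 56 reads in BALB/c, against 6, 2 and 1 reads in B6. With no filter beyond 1 read its log2 fold was 1.53 ± 0.41 (SE, limma adjusted p = 0.0609). Ciart, a repressor of the dimer, had 0 reads over the 3 BALB/c libraries and 4 over the 3 B6 libraries.

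Of 23 tested genes for kinases, ligases and cofactors that act on clock proteins, 0 were called by limma, also 0 by limma-voom. An unadjusted p under 0.05 was found for 4 of them. Over all genes tested these shares were 9.09% called by limma and 21.3% at an unadjusted p under 0.05. The log2 fold was below 0 for 14 of the 23 and above 0 for 9. The casein kinase genes Csnk1a1 and Csnk1d, whose kinases phosphorylate PER proteins, had log2 folds of 0.15 and 0.02 (limma adjusted p = 0.437 and 0.967), and the ubiquitin ligase gene Btrc had 0.32 (0.451). The median log2 fold of this list was -0.09, and that of all genes tested was 0.0023. Of 25 tested clock output genes, 3 were called, all higher in BALB/c, against 9.09% of all genes tested (4.17% higher). The median log2 fold of this list was -0.01. Cdkn1a, a cell cycle inhibitor gene, had 30.7, 33.2 and 33.5 CPM in BALB/c, against 10.2, 14.3 and 13.2 CPM in B6 (log2 fold 1.31, limma adjusted p = 4.66e-05). Klf10, which encodes a Krüppel-like factor, was 1.14 higher in log2 (limma adjusted p = 0.0122), but not once BALB/c replicate 1, B6 replicate 1 or B6 replicate 3 was left out. Klf9, which responds to both the clock and glucocorticoids, had 0.54 (limma adjusted p = 0.00305). Without a trend in the variance prior, Klf9 and Klf10 were not called (limma adjusted p = 0.169 and 0.081). Alas1, Avpr2 and Cebpb had -0.29, -0.40 and 0.26 and were not called (limma adjusted p = 0.128, 0.365 and 0.704). Exons of Cdkn1a, Alas1, Avpr2, Cebpb, Btrc and Csnk1d each overlap those of 1 other gene.

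Body temperature follows the clock and feeds back on it, through cold-inducible RNA-binding proteins and heat shock factors. Of 10 genes of the temperature response, 1 was called higher and 4 lower in BALB/c, against 4.17% and 4.93% of all genes tested. The median log2 fold of the list was -0.28. Cirbp, a cold-inducible RNA-binding protein that sustains Clock transcripts in cultured mouse cells, had 62.8, 60.4 and 38.9 CPM in BALB/c, against 24.9, 15.7 and 10.8 CPM in B6. Its fold in log2 was 1.65 ± 0.23 (SE, limma adjusted p = 2.39e-05), and the strains did not overlap. Rbm3, another cold-inducible gene of the list, had 0.23 and was not called (limma adjusted p = 0.651), and its strains overlapped. Exons of Rbm3 overlap those of Rbm3os, and Rbm3 was named after its values were seen. Hspa8, a constitutive heat shock protein gene, had 148.7, 160.0 and 187.3 CPM in BALB/c, against 423.9, 430.1 and 553.9 CPM in B6 (log2 fold -1.50, limma adjusted p = 1.29e-09), and its exons overlap 3 small nucleolar RNA genes. The chaperone genes Hsph1, Hsp90aa1 and Hsp90ab1 had -0.68, -0.50 and -0.41 (limma adjusted p = 0.00304, 0.00278 and 0.00272), and none of the 3 was called without the trended prior (limma adjusted p = 0.131, 0.16 and 0.116). Dnajb1, Hspa1a and Hspa1b had -0.36, -0.20 and -0.15 and were not called (limma adjusted p = 0.159, 0.74 and 0.768).

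Per1 and Per2 also respond to acute signals that induce immediate early genes. Of 9 tested immediate early genes, 6 were called, all higher in BALB/c, against 4.17% of all genes tested called higher. The median log2 fold of the list was 1.19. Egr1 had 37.7, 45.98 and 88.2 CPM in BALB/c, against 4.07, 8.27 and 19.95 CPM in B6, and its fold in log2 was 2.46 ± 0.34 (SE, limma adjusted p = 2.55e-05). Its call ended without a trend in the variance prior and with a robust prior (limma adjusted p = 0.06 and 0.116). Jun, Junb, Ier2 and Zfp36 had 1.21, 1.57, 1.19 and 1.19 (limma adjusted p = 1.4e-05, 4.34e-05, 0.00337 and 0.00386). Atf3, Btg2 and Nr4a1 had 0.41, 0.64 and 0.73 and were not called (limma adjusted p = 0.688, 0.115 and 0.322). Exons of Jun, Junb and Zfp36, and of Hspa1a above, each overlap those of 1 other gene. Egr1 and Per2, which differed in opposite directions between the strains, were both highest in replicate 3 within each strain. Per1 did not share this order. It was highest within BALB/c in replicate 2 and lowest within B6 in replicate 3. The part of such signals in the values of the clock genes was not tested.

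**Figure D5:**
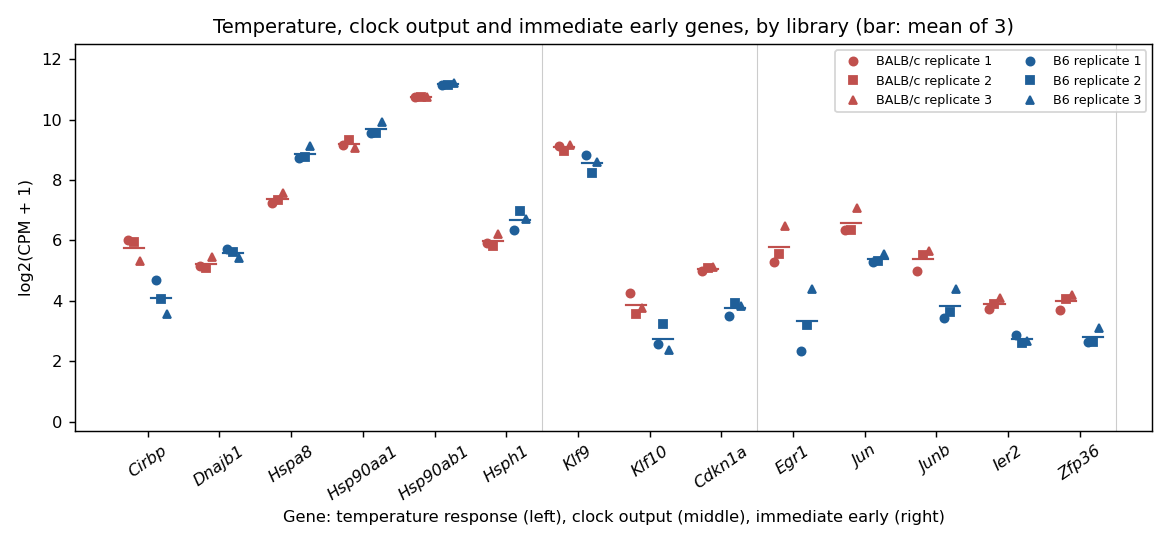
Log2(CPM + 1) in each library of 6 temperature response genes (left), 3 clock output genes (middle) and 5 immediate early genes (right), BALB/c on the left of each pair and B6 on the right, with a bar at the mean of 3 libraries. Cirbp, Klf9, Klf10, Cdkn1a, Egr1, Jun, Junb, Ier2 and Zfp36 lie higher in BALB/c, and Hspa8, Hsp90aa1, Hsp90ab1 and Hsph1 lie lower.

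The tissue label was checked by markers, and kidney markers were high in every library. Summed levels of 5 proximal tubule markers were 3669 to 4210 CPM in BALB/c and 4347 to 4570 CPM in B6, with 0 of 5 called by limma (0 by limma-voom, 2 at an unadjusted p under 0.05). Among all genes tested 9.09% were called by limma, and 21.3% had an unadjusted p under 0.05. Of 3 podocyte markers 1 was called higher by limma, 2 were called by limma-voom and 3 had an unadjusted p under 0.05. All 3 had log2 folds above 0, with sums of 417.8 to 457.5 CPM in BALB/c and 276.2 to 312.3 CPM in B6. Of 2 tested immune markers 1 was called higher (Csf1r), with sums over 4 markers of 112.7 to 147.9 CPM in BALB/c and 64.0 to 85.0 CPM in B6. Csf1r made up most of these sums, with 102.9, 118.5 and 132.8 CPM in BALB/c and 61.1, 73.9 and 54.0 CPM in B6. Ptprc was not called (log2 fold 0.40, limma adjusted p = 0.45), and Cd3e and Cd79a lay below the filter. Of 2 distal convoluted tubule markers 1 was called higher and 1 lower, and of 4 endothelial, 3 collecting duct and 3 liver markers 0 were called by limma or limma-voom (2, 1 and 1 at an unadjusted p under 0.05). Of 5 red cell markers 1 was called lower, with sums of 2888 to 5280 CPM in BALB/c and 4553 to 5575 CPM in B6. Of 5 adrenal cortex markers, Cyp11b1, Cyp11b2 and Cyp21a1 had 0 reads in every library and Cyp11a1 had 1 read in 1 BALB/c library. The other one, Star, had 19, 52 and 51 reads in BALB/c and 31, 25 and 35 reads in B6 and was not called. The 5 adipose markers summed to at most 4.26 CPM in BALB/c and 5.54 CPM in B6. Xist was present in every library (104.3 to 192.9 CPM) and was called higher in BALB/c (log2 fold 0.56, limma adjusted p = 0.00444). The Y-linked genes Eif2s3y, Uty and Kdm5d had 0 reads in every library. Ddx3y, also Y-linked, had 8, 0 and 0 reads in BALB/c and 1, 1 and 0 reads in B6. By these genes every library read as female, though the labels do not give sex. In whole tissue, fewer cells of a type and less RNA per cell cannot be told apart, and the part of cell composition in the clock values was not tested.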

How the data were processed

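RNA was measured in kidney of 3 BALB/c and 3 B6 mice with a Lexogen QuantSeq 3′ kit, per the labels' protocols. Bowtie2, bedtools and mm10 are named in the submitters' processing notes. Not given in the sources used here: their versions, the annotation, and whether strand was used. The authors deposited log2 values, 1 for each row in each library, with 35 symbols on several rows. On a linear scale and lowered by 1, these fell on steps of 1 read (100% of those at or below 20 reads, within 0.1 read). They were therefore taken as log2(CPM + 1), and reads were recovered from the steps.

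Genes with a value of at least 1 in at least 3 libraries were tested with limma 3.58.1 in R 4.3.3 (strain as sole term, trended variance prior with 18.4 degrees of freedom, against 4 residual ones, two-sided). The variance of each gene thus rests more on genes of similar level than on its own spread. The test was checked on simulated data. By the labels each library is from its own mouse, so the spread tested is that between mice. The alternatives changed the pseudocount, filter, scaling, variance prior, test, libraries and a replicate block. Genes named are all 10 members, the clock loop list (1 gene of it is not reported here), called genes of the other lists up to 5 by p with up to 3 uncalled ones in alphabetical order, and the 3 nearest profiles to Arntl and to Dbp. Adrenal cortex markers, Xist and Y-linked genes served as checks. Members and lists were chosen with earlier results of these data known. Gene positions and exon overlaps came from GENCODE M21 (GRCm38), and promoter sequences from RefSeq.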

Additional observations from a re-analysis of the deposited data

How the results depend on the processing

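Over 17 alternatives none of the 10 clock genes changed the direction of its fold where it was tested; a mean of at least 5 CPM left out Per3 and Dbp, and 3 of the 6 fits with 1 library left out had no Per3. Calls of Nr1d1 held in all of them. Nr1d2 and Clock lost theirs with no trend in the variance prior, at unchanged log2 folds of 1.42 (limma adjusted p = 0.0504) and -0.61 (0.066). Per2 lost its call with no filter beyond 1 read (-1.17, 0.116), no trend (-1.17, 0.104) and limma-voom (-1.41, 0.058). Cry1 lost its call with no filter (-1.05, 0.163), total reads (-1.03, 0.0587), the upper quartile (-1.02, 0.0515) and no trend (-1.05, 0.195). Of the 10, genes called fell to 3 with no filter and to 1 with no trend, against 5. No trend also gave 493 calls over all genes (1211 as reported), 1 for clock output genes, 1 for glucocorticoid and stress genes, 2 for temperature genes and 4 for immediate early genes (6 as reported), which had 5 with a robust prior, limma-voom, no filter and the stricter filter on the mean. A pseudocount of 5 CPM brought the strain difference of Arntl minus Dbp to -0.68 and of Arntl minus Nr1d1 to -1.64 (-1.02 and -2.14 as reported). Scaling moved the median of all genes by less than 0.1 (log2). The cause of these changes was not tested.

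With 1 library left out, log2 folds ranged from 1.28 to 1.67 for Nr1d1, 1.12 to 1.61 for Nr1d2, -0.71 to -0.56 for Clock, -0.78 to -0.59 for Arntl, -1.54 to -0.95 for Per2 and -1.42 to -0.64 for Cry1. Of the 10, genes called ranged from 3 to 4, all genes from 777 to 1125, other clock loop genes and clock protein modifiers each from 0 to 1. Rora ranged from -0.075 without B6 replicate 2 to 0.15, and was -0.00067 without BALB/c replicate 2. The replicate block, with correlations of same-numbered libraries between -0.08 and 0.01, gave a log2 fold of 1.48 for Nr1d1 (limma adjusted p = 0.000663) with 5 of the 10 clock genes and 977 genes in all called. The edgeR test planned for raw counts was not run, since the deposited values are not counts. Depth limits genes with few reads, Per3, Arntl2 and Ciart among them.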

Other observations

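Glucocorticoids set the phase of clocks in peripheral tissues and act directly on Per1. Of 12 glucocorticoid and stress response genes, 4 were called by limma, all higher in BALB/c, against 4.17% of all genes tested called higher. The median log2 fold of the list was 0.08. Cebpd, a transcription factor gene of the acute phase response, had 80.8, 76.3 and 50.1 CPM in BALB/c, against 38.6, 30.0 and 40.4 CPM in B6 (log2 fold 0.89, limma adjusted p = 0.000855), a call that was lost with no trend in the variance prior (0.0856), and its exons overlap those of Spidr. Zbtb16, a glucocorticoid-induced gene for a transcriptional repressor, had 7.45, 3.66 and 6.81 CPM in BALB/c, against 1.10, 0.504 and 1.57 CPM in B6 (log2 fold 1.75, limma adjusted p = 0.00303). Klf9 is described above. Errfi1, an inhibitor of EGF receptor signalling, had 0.47 (limma adjusted p = 0.0377), and leaving out any library but B6 replicate 1 ended that call (limma adjusted p up to 0.192), as did no filter (0.134) and no trend (0.277). Fkbp5 and Tsc22d3, widely used targets of the glucocorticoid receptor, had -0.38 and -0.41 (limma adjusted p = 0.262 and 0.206), and the receptor gene Nr3c1 had 0.06 (0.837); Tsc22d3 and Nr3c1 were named after their values were seen. Dusp1, with exons that overlap those of Ergic1, had 0.71 (limma adjusted p = 0.0519) and Ddit4 0.10 (0.839).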
